A study of Mus musculus with 8 samples.

Results

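The genes described here are 36 adhesion genes of mouse bone marrow-derived dendritic cells (BMDCs): 13 integrin subunits, 7 counter-receptors of the immunoglobulin superfamily, 5 genes for sialomucins, CD44 and the CD47-SIRPA pair, 6 for a cadherin, catenins, EpCAM and a connexin, and 5 for adaptors that tie integrins to actin. They were taken as a list of symbols, out of 18193 genes that have a probe set with a single annotated symbol. The list was drawn up with earlier results of these data known. Each member was read from 1 such probe set, the one with the highest mean log2 signal over the 8 arrays. Marrow of 6-week-old female BALB/c mice was grown for 9 days with GM-CSF (200 U/mL by the labels, while the study's methods give another amount) into immature DCs. The study asked how [BF/S+L/Ep], a chemically defined extract of *Echinacea purpurea*, acts on such cells. Its own list of genes lowered at least 2-fold with the extract on these arrays includes *Itga6* at 4 h, and *Cdh1* and *Gja1* at 12 h. Cells of the [BF/S+L/Ep] groups received 75 μg/mL of the extract for 12 h or 4 h, in DMSO as the vehicle. Cells of the DMSO groups received 0.1% DMSO alone for the same 12 h or 4 h. Each of the 4 groups has 2 Affymetrix whole-genome arrays, and the values are MAS5 signals, on a linear scale. The study calls the arrays of a group biological replicates, while no label says whether they came from separate cultures or animals, so the p-values measure only the spread between these samples.

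Integrins are pairs of an α and a β chain that bind matrix proteins or counter-receptors on other cells. Their tails are switched on by talin and kindlin, which link them to the actin cytoskeleton. Leukocyte integrins of the β2 family bind ICAM-1, α4β1 binds VCAM-1 and fibronectin, and αEβ7 binds E-cadherin. In dendritic cells these proteins serve attachment to matrix, contact with T cells and passage across vessel walls.

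Of the 36 members, 34 lay above the background reference of the array on 4 or more arrays, and 32 of them on all 8. That reference was the signal below which 95% of 83 chemosensory receptor probe sets lay, and it was between 66.7 and 107 over the arrays. *Itgb3*, which encodes the β3 chain, and *Pecam1*, which encodes CD31, were above it on 0 arrays and are set apart as near background. *Epcam* was above it on 7 arrays and *Itgae* on 6. Of the marker genes for conventional DCs, 9 of 10 were above the reference on all 8 arrays, and *Flt3* on 6. Macrophage markers were as widely present, at 7 of 7 measured, while 0 of 4 T and NK cell markers, 0 of 4 B cell markers and 0 of 5 epithelial markers passed it on 4 or more arrays. Replicate arrays correlated at 0.967 to 0.971 in log2 signal over the probe sets above the reference.

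With the extract, 0 of 36 members passed the test at either time. By limma with Benjamini-Hochberg adjustment over 45037 probe sets, the count was 0 at 12 h, 0 at 4 h and 0 for the average of both times, where 0.0200%, 0.00444% and 0.107% of all probe sets passed. An unadjusted p under 0.05 was reached by 5 members at 12 h (2 higher and 3 lower with the extract), by 4 at 4 h (1 higher and 3 lower), and by 6 in the average (1 higher and 5 lower). Over all probe sets such p-values made up 5.96%, 4.97% and 7.08%. The count stayed at 0 in all 3 comparisons under every alternative that was run. The response at 12 h minus that at 4 h was not called for any member (0 of 36, against 0.00% of all probe sets). An unadjusted p under 0.05 by limma was reached by 2 members, against 3.66% of all probe sets.

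The median log2 fold change with the extract over the 34 members above background was 0.02 at 12 h and -0.05 at 4 h. Over the brightest probe sets of all 10929 genes above background these medians were -0.02 and -0.01. The 95% interval of the fold change lay inside 2-fold in either direction for 29 of 34 members at 12 h and for 30 of 34 at 4 h, against 80.4% and 81.7% of all genes above background. At 12 h the interval of *Gja1*, *Itga6*, *Cdh1*, *Itgb7* and *Itgae* reached past 2-fold, and at 4 h that of *Vcam1*, *Pvr*, *Epcam* and *Itgae*. For the average of the times the interval lay inside 2-fold for 33 of 34 members (90.3% of genes), with *Gja1* the exception. A 2-fold difference in the mean and in both ratios of same-numbered arrays was met by 0 members at 12 h and 0 at 4 h, where 0.598% and 0.454% of the probe sets above background met it.

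**Figure D1:**
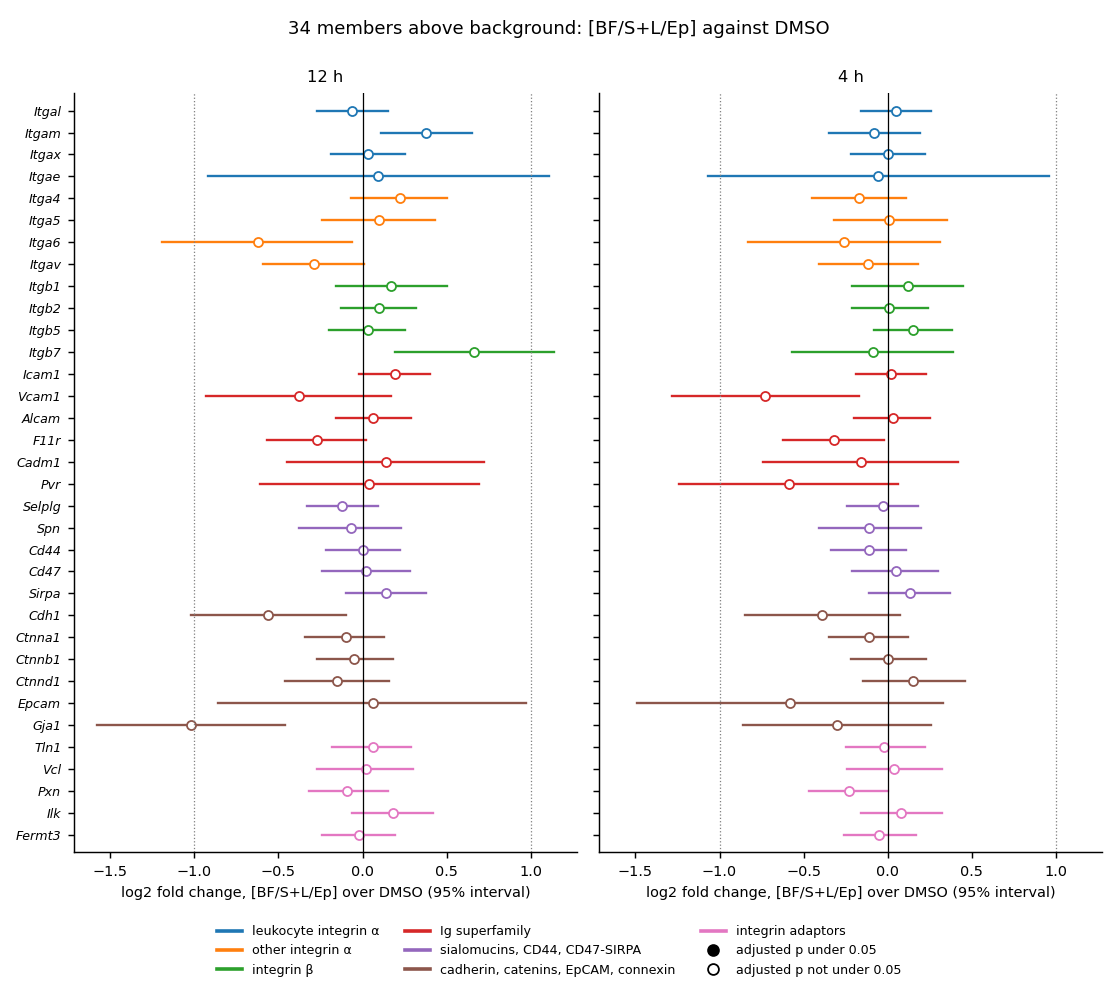
Log2 fold change of [BF/S+L/Ep] over DMSO for the 34 members above background, at 12 h (left) and 4 h (right). Points are limma estimates from 2 arrays a group, lines their 95% intervals and colours the roles; dotted lines mark 2-fold, and all points are open since 0 members passed the adjusted p.

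*Gja1*, which encodes the gap junction protein connexin 43, had the smallest treatment p of all members. Its signals at 12 h were 245.5 and 211 in [BF/S+L/Ep]-treated cells, against 440.3 and 482 in DMSO-treated cells. Both treated arrays lay under both control arrays at this time. The log2 fold change was -1.02 ± 0.26 (SE, n = 2 arrays a group), with an adjusted p of 0.449 by limma. At 4 h the signals were 158 and 127 with the extract and 192 and 159 with DMSO, again without overlap, and the log2 fold change was -0.30 ± 0.26. The difference between the times was -0.72 ± 0.37 on the log2 scale, with an adjusted p of 1.0. Of the other *Gja1* probe sets, 3 were above background on at least 4 arrays, and their log2 fold changes at 12 h were -0.84, -0.96 and -1.05, with adjusted p-values of 0.829, 0.783 and 0.836.

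*Cdh1* encodes E-cadherin, the homophilic adhesion molecule of epithelia that also joins DCs to keratinocytes and to each other. Its signals at 12 h were 301 and 235 with the extract and 466 and 329 with DMSO, without overlap. At 4 h they were 408 and 412.5 with the extract and 553 and 521 with DMSO, likewise apart. The log2 fold change was -0.56 ± 0.21 at 12 h (adjusted p = 0.756 by limma) and -0.47 ± 0.15 averaged over the times (adjusted p = 0.513). The 12 h estimate is 0.679 times the DMSO level, short of the 2-fold of the study's list, though its interval reached past 2-fold. The catenins that anchor cadherins to actin are α-, β- and p120-catenin, the products of *Ctnna1*, *Ctnnb1* and *Ctnnd1*. Their averaged log2 fold changes with the extract were -0.11, -0.02 and 0.00 and did not pass the test. A dimmer *Ctnnb1* probe set was higher with the extract at an unadjusted p under 0.05 by limma, and it did not pass either. *Epcam*, an epithelial adhesion protein also found on Langerhans cells, had -0.26 ± 0.30 and an adjusted p of 0.897.

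*Itga6* encodes the α6 chain of laminin receptors. At 12 h it had 232 and 329 with the extract and 433 and 418 with DMSO, without overlap, a log2 fold change of -0.62 ± 0.26 (adjusted p = 0.808). At 4 h it had 380.1 and 244 with the extract, against 421 and 316 with DMSO, so the groups overlapped, and the log2 fold change was -0.26 ± 0.26, or 0.06 without replicate 2 of the treated arrays. That 4 h estimate is 0.835 times the DMSO level, short of 2-fold. A second *Itga6* probe set was above background on 3 arrays only. At 4 h it read 36.3 and 37.4 with the extract and 70.6 and 77.5 with DMSO. All 4 values lay under the reference, so no fold is given. At 12 h it read 59.4 and 142.3 with the extract and 155.4 and 109.7 with DMSO, and the groups overlapped.

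The integrin chains that reached an unadjusted p under 0.05 at 12 h in the other direction were αM and β7. *Itgam* encodes CD11b, the α chain of complement receptor 3, and its 12 h signals were 2466 and 3092 with the extract and 1996 and 2255 with DMSO. *Itgb7* encodes the β chain that pairs with α4 and αE, and its 12 h signals were 461 and 740.3 with the extract and 396 and 343 with DMSO. In both genes the treated arrays lay above the control arrays, and the treated arrays were farther from each other than the control arrays were. The log2 fold changes were 0.38 ± 0.13 for *Itgam* (adjusted p = 0.686) and 0.66 ± 0.22 for *Itgb7* (adjusted p = 0.687). At 4 h *Itgam* had 2339.8 and 2539 with the extract and 2646 and 2500.4 with DMSO, and *Itgb7* had 371 and 430.1 with the extract and 429 and 423 with DMSO. Both genes overlapped at 4 h, and they were the 2 members with an unadjusted p under 0.05 for the difference between the times, at 0.46 ± 0.18 and 0.76 ± 0.31, with adjusted p-values of 1.0.

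*Vcam1*, which encodes the ligand of α4β1, gave the smallest p at 4 h among the members above background. Its 4 h signals were 134 and 129.7 with the extract and 236 and 201 with DMSO. They did not overlap, and the log2 fold change was -0.73 ± 0.25 (adjusted p = 0.977). At 12 h they were 229 and 266 with the extract and 329 and 314 with DMSO, apart in the same direction, at -0.38 ± 0.25. A second *Vcam1* probe set, above background on all 8 arrays, had 176 and 242 with the extract and 179 and 194 with DMSO at 12 h, and 142 and 198.5 with the extract and 160.4 and 154 with DMSO at 4 h. Its groups overlapped at both times, at 0.15 on the log2 scale at 12 h (adjusted p = 0.982) and 0.09 at 4 h (adjusted p = 1.0). The third *Vcam1* probe set, above background on 4 arrays, ran differently. It read 26.5 and 22.8 with the extract and 129.6 and 132 with DMSO at 12 h, and 95 and 103 with the extract and 65.8 and 62 with DMSO at 4 h, so its treated arrays were the lower ones at 12 h and the higher ones at 4 h. The difference between the times did not pass in that probe set either (adjusted p = 1.0).

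*F11r* encodes the junctional adhesion molecule JAM-A, and *Pxn* the focal adhesion adaptor paxillin. On its brightest probe set *F11r* had the lower values with the extract at both times, and its signals are given with the time comparison. The averaged log2 fold change was -0.30 ± 0.10 (adjusted p = 0.537 by limma), and -0.32 to -0.04 over 16 alternatives. A second *F11r* probe set read 80.8 and 75.1 with the extract and 101.2 and 114.1 with DMSO at 4 h. At 12 h it read 74.2 and 66.2 with the extract and 23.5 and 60.5 with DMSO, all under the reference. *Pxn* had 4387 and 3698 with the extract at 4 h, against 4624 and 4859 with DMSO, a log2 fold change of -0.23 ± 0.11 (adjusted p = 0.997). At 12 h it had 3834 and 3821.5 with the extract and 3928 and 4196 with DMSO, at -0.09. Another *Pxn* probe set ran the other way at 4 h, with 201 and 258.5 with the extract and 119.7 and 146 with DMSO, at 0.79 on the log2 scale (adjusted p = 0.979), and with the mean of all *Pxn* probe sets the 4 h value was 0.09.

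The log2 fold changes of the β2 integrin chains CD11c, CD18 and CD11a with treatment were small, and their intervals were narrow. *Itgax* encodes CD11c and is among the conventional DC markers read here. It had log2 fold changes of 0.03 ± 0.10 at 12 h (95% interval -0.19 to 0.25) and 0.00 ± 0.10 at 4 h (-0.22 to 0.22). Its partner *Itgb2*, the common β2 chain, had 0.10 ± 0.11 at 12 h and 0.01 ± 0.11 at 4 h. *Itgal*, the α chain of LFA-1, had -0.06 ± 0.10 at 12 h and 0.05 ± 0.10 at 4 h. *Itgb3* was the only member with an unadjusted p under 0.05 and higher values with the extract at 4 h. It is listed at 50.4 and 59.4 with the extract and 5.0 and 3.7 with DMSO at 4 h, all under the reference, so no fold is given. Its 12 h signals of 27.6 and 13.0 with the extract and 17.7 and 10.5 with DMSO were also under it. A second *Itgb3* probe set was above the reference on 1 array. *Pecam1* lay between 5.0 and 15 on all arrays.

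**Figure D2:**
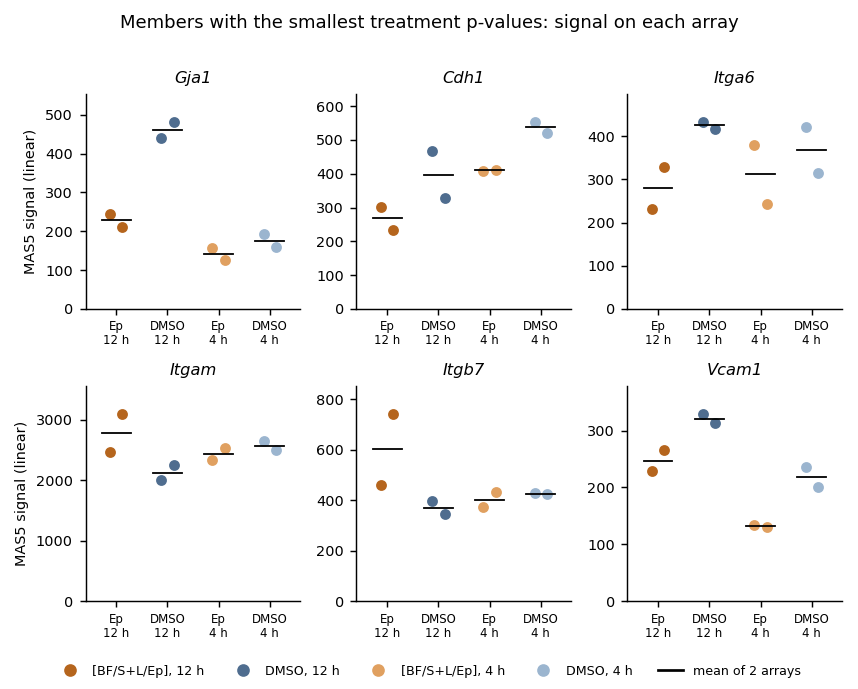
MAS5 signal (linear axis from 0) of 6 members with small treatment p-values, with [BF/S+L/Ep] at 12 h, DMSO at 12 h, [BF/S+L/Ep] at 4 h and DMSO at 4 h from left to right. Points are arrays and bars the means of 2 arrays; *Gja1* at 12 h read 245.5 and 211 with the extract against 440.3 and 482 with DMSO.

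More of these genes passed between the times than between the treatments. Averaged over both treatments, 12 of 36 members passed the test at 12 h against 4 h, 7 higher and 5 lower at 12 h. Over all probe sets 6.84% passed, and over the brightest probe sets of genes above background 15.6%. *Itga4*, *Icam1*, *Sirpa*, *Gja1*, *Tln1*, *Cd44* and *Vcam1* rose at 12 h, while *F11r*, *Spn*, *Itgax*, *Alcam* and *Itgae* fell. In [BF/S+L/Ep]-treated cells alone 6 members passed (4 higher and 2 lower), against 2.86% of probe sets and 7.07% of genes above background. In DMSO-treated cells alone 6 passed as well (4 higher and 2 lower), against 2.10% and 5.53%. *Itga4*, *Icam1*, *Sirpa*, *F11r* and *Spn* were called in both treatments. The log2 fold changes of these 2 comparisons share no arrays. Their p-values rest on the arrays of both treatments, since 1 fit supplied the variance for both. The calls in the 2 treatments are therefore not independent of each other. *Tln1* was called in [BF/S+L/Ep]-treated cells and *Gja1* in DMSO-treated cells, and for neither did the difference between the treatments pass. When single arrays were left out, the calls within 1 treatment for *Icam1*, *Sirpa*, *F11r*, *Spn*, *Tln1* and *Gja1* were each lost without at least 1 array of that treatment, while those of *Itga4* held in both treatments. The median over the 34 members was 0.01 on the log2 scale for the averaged comparison, against -0.03 over all genes above background.

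**Figure D3:**
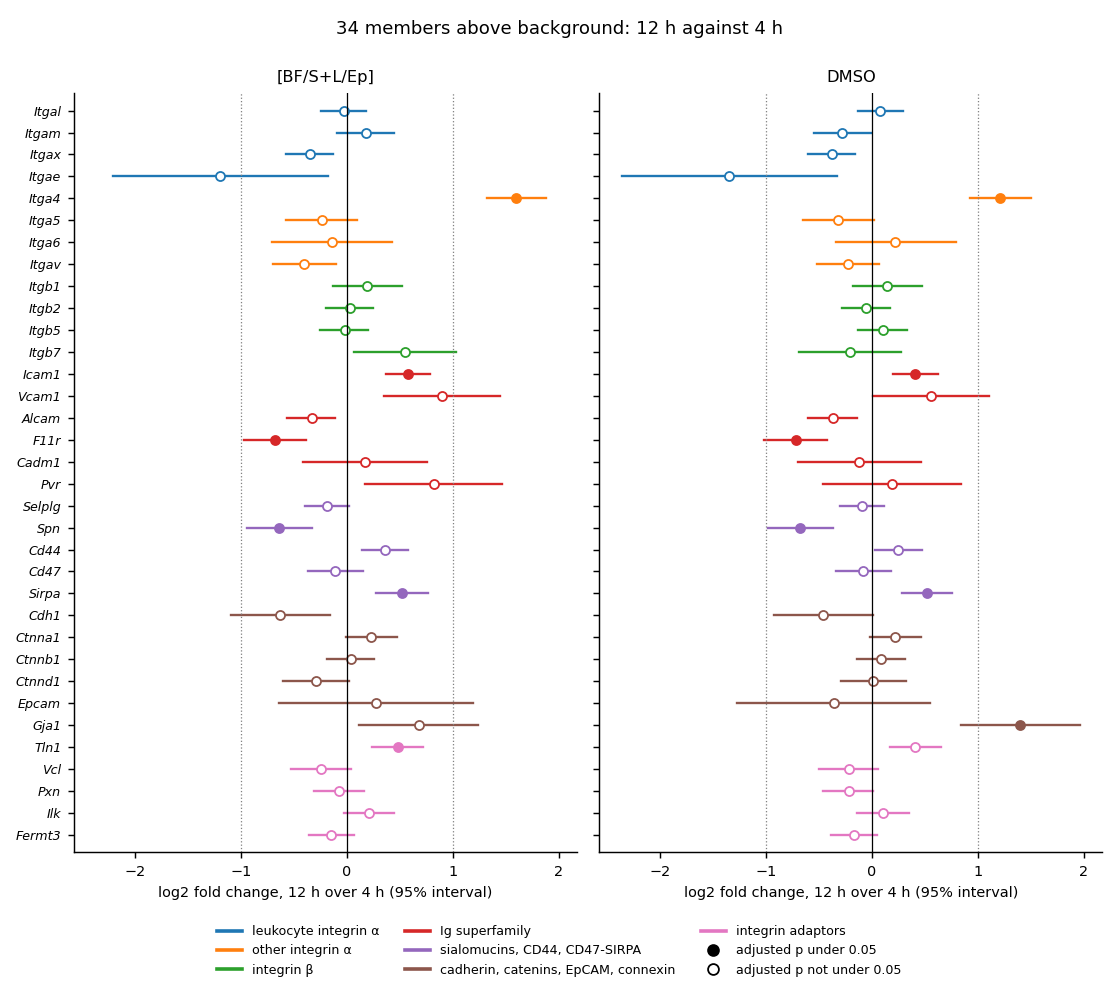
Log2 fold change of 12 h over 4 h for the 34 members above background, in [BF/S+L/Ep]-treated cells (left) and DMSO-treated cells (right). Points are limma estimates from 2 arrays a group, filled where the adjusted p was under 0.05 (6 members in each panel), lines their 95% intervals and colours the roles.

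Some markers of other cells moved with time as well. Of the megakaryocyte and platelet markers, 4 of 5 measured passed the reference on 4 or more arrays. Their summed signal, which was mostly *Pf4*, was 21870 to 23080 in [BF/S+L/Ep] and 17390 to 18620 in DMSO at 12 h. At 4 h it was 12690 to 16970 in [BF/S+L/Ep] and 12160 to 14170 in DMSO. *Itga2b*, an integrin chain among these markers, overlapped between the times and did not pass. Its means were 204 in [BF/S+L/Ep] and 244 in DMSO at 12 h, and 205 and 181 at 4 h. Of the eosinophil markers only *Siglecf* was above the reference (1 of 4, with *Epx*, *Prg2* and *Il5ra* above it on 0 arrays), and the sum was 1719 to 1899 in [BF/S+L/Ep] and 1904 to 2286 in DMSO at 12 h, against 2698 to 2836 in [BF/S+L/Ep] and 3176 to 3253 in DMSO at 4 h. The sums for 7 macrophage markers were 60680 to 64160 in [BF/S+L/Ep] and 63820 to 64610 in DMSO at 12 h. At 4 h they were 53990 to 57390 in [BF/S+L/Ep] and 58460 to 59760 in DMSO. *Csf1r* made up most of each sum, at 33146 to 38691 over the arrays. Of these 7, 4 passed in the averaged comparison as higher at 12 h and 0 as lower: *Adgre1* (F4/80) by 1.21 on the log2 scale, *C1qb* by 0.57, *Mertk* by 0.53 and *C1qa* by 0.45 (adjusted p = 6.1e-06, 1.7e-04, 0.00676 and 0.00126). *Fcgr1* at -0.29 (adjusted p = 0.0547 by limma), *Cd68* at 0.05 and *Csf1r* at 0.01 did not pass. Markers of conventional DCs moved too. *Ccr7* and *Zbtb46* were higher on every 12 h array than on every 4 h array, *Itgax* was lower, and the remaining ones overlapped. *Adgre1* had 2789 and 2749.6 in [BF/S+L/Ep] and 2061 and 2483 in DMSO at 12 h, against 1158.2 and 1157.7 in [BF/S+L/Ep] and 1144 and 897 in DMSO at 4 h, so every 12 h array lay above every 4 h array. The sums for 4 plasmacytoid DC markers were 3088 to 3139 in [BF/S+L/Ep] and 3326 to 3520 in DMSO at 12 h. At 4 h they were 3590 to 3685 in [BF/S+L/Ep] and 3755 to 3830 in DMSO. The sums for neutrophil and Langerhans cell markers, the latter with the members *Cdh1* and *Epcam*, were also lower at 12 h within each treatment. The part of all these markers in the time comparison was not tested. In such bulk RNA fewer cells of a type and less RNA per cell cannot be told apart. The 4 h arrays carry the lower array numbers in the labels, so time and array number cannot be told apart either. Within each time the DMSO arrays carry the lower numbers, so the same limit holds for the comparison with the extract.

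Every member that passed the averaged time comparison had the same sign in both treatments, and 5 of them were called in both. The promoter bases of 4 of these 5 are shown. They are the 250 bases before the start of the gene in RefSeq (build GRCm38.p6), 5′ to 3′ on the strand of the gene. Of the 36 members, 22 have an entry, and *Sirpa* is named only. Capitals mark matches, on either strand, to 5 motifs that were picked from general knowledge: the PU.1 core GAGGAA, the AP-1 motif TGANTCA, the aryl hydrocarbon receptor core GCGTG, the E-box CAGGTG and the NF-κB consensus GGGRNNYYCC. In these letters R is A or G, Y is C or T and N is any base.
Itga4 (chr2:79255176-79255425, + strand): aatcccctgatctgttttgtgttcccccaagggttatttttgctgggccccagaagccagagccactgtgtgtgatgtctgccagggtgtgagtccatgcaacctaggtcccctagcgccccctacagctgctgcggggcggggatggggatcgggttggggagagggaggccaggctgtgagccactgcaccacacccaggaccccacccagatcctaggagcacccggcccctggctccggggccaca
Icam1 (chr9:21015690-21015939, + strand): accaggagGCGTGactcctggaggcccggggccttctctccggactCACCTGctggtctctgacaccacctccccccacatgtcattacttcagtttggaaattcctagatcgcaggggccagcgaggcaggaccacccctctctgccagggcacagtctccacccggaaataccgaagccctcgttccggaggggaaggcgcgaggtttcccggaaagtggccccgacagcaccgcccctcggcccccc
F11r (chr1:171437311-171437560, + strand): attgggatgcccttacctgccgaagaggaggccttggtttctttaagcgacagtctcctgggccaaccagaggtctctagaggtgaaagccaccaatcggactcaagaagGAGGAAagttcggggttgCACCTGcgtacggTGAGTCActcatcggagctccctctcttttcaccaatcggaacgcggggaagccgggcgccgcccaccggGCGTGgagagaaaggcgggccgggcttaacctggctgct
Spn (chr7:127137824-127138073, - strand): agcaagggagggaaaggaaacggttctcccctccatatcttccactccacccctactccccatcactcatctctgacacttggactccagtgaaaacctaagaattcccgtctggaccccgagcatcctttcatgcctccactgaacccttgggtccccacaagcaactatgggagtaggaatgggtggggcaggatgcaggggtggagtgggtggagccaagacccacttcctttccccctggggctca
The *F11r* window holds 1 match each to the PU.1 core, the E-box, the AP-1 motif and the aryl hydrocarbon receptor core, and the *Icam1* window 1 each to the aryl hydrocarbon receptor core and the E-box. The stretch tggaaattcc in the *Icam1* window differs from the NF-κB consensus only in its opening letter, and such near matches were not counted. The *Itga4* and *Spn* windows hold 0 matches to the 5 motifs. Over 32817 promoter windows of this length, 23.3% hold the PU.1 core, 28.1% the aryl hydrocarbon receptor core, 17.2% the E-box, 6.8% the AP-1 motif and 7.2% the NF-κB consensus. Of the 26 windows of members, 11 hold the PU.1 core, 11 the aryl hydrocarbon receptor core, 6 the E-box, 3 the AP-1 motif and 2 the NF-κB consensus. These matches are letters in a window and were not set against any measured binding.

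*Itga4* encodes the α4 chain of VLA-4, the receptor for VCAM-1 and fibronectin, and was the member that rose most at 12 h in the averaged comparison. Its signals at 12 h were 6106 and 5649 in [BF/S+L/Ep] and 4561 and 5611 in DMSO. At 4 h they were 1941 and 1932.5 in [BF/S+L/Ep] and 1950.1 and 2438.5 in DMSO. Every 12 h array lay above every 4 h array. The fold change at 12 h over 4 h was 3.03 in [BF/S+L/Ep] (log2 1.60 ± 0.13, adjusted p = 2.0e-05) and 2.32 in DMSO (log2 1.21 ± 0.13, adjusted p = 2.2e-04), both by limma. The difference between these log2 values was 0.39 ± 0.18 (adjusted p = 1.0). The β chains that pair with α4 did not pass: the averaged log2 fold change was 0.17 ± 0.11 for *Itgb1* (adjusted p = 0.469) and 0.17 ± 0.16 for *Itgb7* (adjusted p = 0.651). Of the other *Itga4* probe sets, 3 were above background, and all 3 rose in the averaged comparison, by 1.25, 0.78 and 1.33 on the log2 scale, with adjusted p-values of 2.7e-05, 0.0137 and 4.9e-04.

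*Vcam1*, the gene of an α4β1 ligand, was higher at 12 h in the averaged comparison, at 0.73 ± 0.18 on the log2 scale (adjusted p = 0.0263). Its arrays at 12 h and 4 h did not overlap within a treatment, as the signals above show, but the higher of the DMSO arrays at 4 h lay above the lower of the [BF/S+L/Ep] arrays at 12 h. The call was lost when any 1 of the 8 arrays was left out, at adjusted p-values of 0.0545 to 0.106. The other probe set that was above background on all 8 arrays did not pass, at 0.27 (adjusted p = 0.601).

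*Icam1* encodes the main counter-receptor of LFA-1 in contacts of DCs with T cells. Its signals at 12 h were 8471 and 7731 in [BF/S+L/Ep] and 7233 and 7001 in DMSO. At 4 h they were 5524.5 and 5325 in [BF/S+L/Ep] and 5448 and 5273 in DMSO. The 4 h arrays lay close to each other and under all 12 h arrays. It rose 1.49-fold in [BF/S+L/Ep] (log2 0.58 ± 0.10, adjusted p = 0.00556) and 1.33-fold in DMSO (log2 0.41 ± 0.10, adjusted p = 0.0494). The α and β chains of its receptor did not pass, with averaged log2 fold changes of 0.03 ± 0.07 for *Itgal* and -0.01 ± 0.07 for *Itgb2*.

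*F11r* and *Alcam* were the counter-receptors that fell. *F11r* signals at 12 h were 473 and 498.5 in [BF/S+L/Ep] and 593 and 581 in DMSO. At 4 h they were 760.5 and 790.2 in [BF/S+L/Ep] and 972 and 963 in DMSO. The 4 groups were ordered without any overlap, the replicates of each lying close together. The 12 h level was 0.626 times that at 4 h in [BF/S+L/Ep] (log2 -0.68 ± 0.14, adjusted p = 0.0187) and 0.607 times in DMSO (log2 -0.72 ± 0.14, adjusted p = 0.0154). *Alcam*, which encodes the CD6 ligand of the T cell contact, had 1745 and 1783 in [BF/S+L/Ep] and 1707.5 and 1668 in DMSO at 12 h, against 2164 and 2281 in [BF/S+L/Ep] and 2153 and 2209.6 in DMSO at 4 h. Its averaged log2 fold change was -0.35 ± 0.07 (adjusted p = 0.0106), and without DMSO 4 h replicate 2 the adjusted p was 0.0604. None of its 4 other probe sets passed, with values between -0.21 and 0.26. *Cadm1* and *Pvr*, a pair of nectin-like molecules, did not pass, and the averaged values were 0.03 for *Cadm1* and 0.51 ± 0.21 for *Pvr* (adjusted p = 0.222). A dimmer *Pvr* probe set did pass, at 0.73 (adjusted p = 0.049).

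Within the sialomucin and CD44 group, *Spn* fell while *Sirpa* and *Cd44* rose. *Spn* encodes CD43, a long sialomucin that hinders or aids leukocyte contact. Its signals were 705 and 718 in [BF/S+L/Ep] and 757 and 737 in DMSO at 12 h, against 1161 and 1058 in [BF/S+L/Ep] and 1070.0 and 1332 in DMSO at 4 h. All 12 h arrays lay under all 4 h arrays, at -0.64 ± 0.14 in [BF/S+L/Ep] (adjusted p = 0.0279) and -0.68 ± 0.14 in DMSO (adjusted p = 0.0246) on the log2 scale. *Sirpa* encodes the inhibitory receptor for CD47 on myeloid cells. Its signals were 8312 and 6902 in [BF/S+L/Ep] and 6639.9 and 7123.5 in DMSO at 12 h, against 5448 and 5088 in [BF/S+L/Ep] and 4655 and 4942 in DMSO at 4 h. The times did not overlap, and the log2 fold change was 0.52 ± 0.11 in [BF/S+L/Ep] (adjusted p = 0.0224) and 0.52 ± 0.11 in DMSO (adjusted p = 0.0286). Its ligand gene *Cd47* had -0.10 ± 0.08 in the averaged comparison (adjusted p = 0.634).

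*Cd44* encodes the receptor for hyaluronan. At 12 h it had 11963.5 and 12084.5 in [BF/S+L/Ep] and 12099.9 and 11915 in DMSO, which lay within a narrow band. At 4 h it had 8688 and 10046.5 in [BF/S+L/Ep] and 9946 and 10286 in DMSO, all lower. The averaged log2 fold change was 0.31 ± 0.07 (adjusted p = 0.0211), and the call was lost under 9 of 16 alternatives, among them the omission of any 1 array other than those of [BF/S+L/Ep] at 4 h. *Selplg*, which encodes the selectin ligand PSGL-1, had -0.14 in the averaged comparison and did not pass (adjusted p = 0.309).

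Of the leukocyte integrin α chains, *Itgax* and *Itgae* fell and the other 2, *Itgal* and *Itgam*, did not pass. *Itgax* signals were 15329 and 14431 in [BF/S+L/Ep] and 13920.3 and 15234 in DMSO at 12 h, against 19030.6 and 18833.5 in [BF/S+L/Ep] and 18419.6 and 19541 in DMSO at 4 h. The 2 times stood well apart and the 2 treatments overlapped at each. The averaged log2 fold change was -0.36 ± 0.07 (adjusted p = 0.0071), and without DMSO 4 h replicate 2 the adjusted p was 0.06. *Itgam*, which is the protein-coding gene next to *Itgax* in the RefSeq order and the only adjacent pair among the members, had -0.05 ± 0.09 (adjusted p = 0.852). *Itgae* encodes the αE chain, CD103, which marks DCs of the gut and lung. Its signals were 75.6 and 67.7 in [BF/S+L/Ep] and 54.7 and 82.4 in DMSO at 12 h, against 153 and 176 in [BF/S+L/Ep] and 243 and 119.9 in DMSO at 4 h. The 12 h values lay about the background reference, with 1 array of each treatment above its own and 1 under it. The averaged log2 fold change was -1.27 ± 0.33 (adjusted p = 0.0357), and the call was lost without 6 of the 8 single arrays. A second *Itgae* probe set had 12.1 and 54.0 in [BF/S+L/Ep] and 52.5 and 70.6 in DMSO at 12 h, against 151 and 133 in [BF/S+L/Ep] and 147.5 and 147.4 in DMSO at 4 h. Both of its [BF/S+L/Ep] arrays at 12 h lay under the reference, so in that treatment it was at least 1.88-fold lower at 12 h (adjusted p = 0.0803). Its ligand gene *Cdh1* stood just outside the threshold, at -0.54 ± 0.15 (adjusted p = 0.0504).

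The remaining integrin chains showed no call with time. *Itga5*, *Itga6* and *Itgav* had averaged log2 fold changes of -0.28, 0.04 and -0.31, with adjusted p-values of 0.185, 0.948 and 0.078. *Itgb5*, whose product pairs with αV, had 0.04.

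*Gja1* rose at 12 h, by 1.04 ± 0.18 on the log2 scale in the averaged comparison (adjusted p = 0.00336). In [BF/S+L/Ep]-treated cells the log2 fold change of 12 h over 4 h was 0.68 ± 0.26 (adjusted p = 0.233), and in DMSO-treated cells it was 1.40 ± 0.26 (adjusted p = 0.0124). The signals given above show the DMSO arrays at 12 h as the highest, apart from the other 3 groups. The DMSO arrays of 12 h enter the comparison with the extract at 12 h too, so both values rest on them. The catenins did not pass on their brightest probe sets, at 0.22 for *Ctnna1*, 0.06 for *Ctnnb1* and -0.14 for *Ctnnd1*. A dimmer *Ctnna1* probe set rose by 0.78 (adjusted p = 2.3e-04) and a dimmer *Ctnnb1* one by 0.49 (adjusted p = 0.0165). A dimmer *Ctnnd1* probe set was higher at 12 h at an unadjusted p under 0.05 by limma but did not pass.

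Among the adaptors, *Tln1* rose and the other 4 did not pass. *Tln1* encodes talin-1, which opens integrins from the inside. Its signals were 3534 and 2985 in [BF/S+L/Ep] and 3049 and 3206 in DMSO at 12 h, against 2282 and 2389 in [BF/S+L/Ep] and 2311 and 2408 in DMSO at 4 h. All 12 h arrays lay above all 4 h arrays, and the averaged log2 fold change was 0.44 ± 0.08 (adjusted p = 0.00359). *Fermt3* (kindlin-3), *Vcl* (vinculin), *Pxn* and *Ilk* (integrin-linked kinase) had averaged values of -0.16, -0.23, -0.15 and 0.16. A dimmer probe set of *Fermt3* and a dimmer one of *Pxn* had the other sign at an unadjusted p under 0.05 by limma. Neither passed the adjusted threshold.

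**Figure D4:**
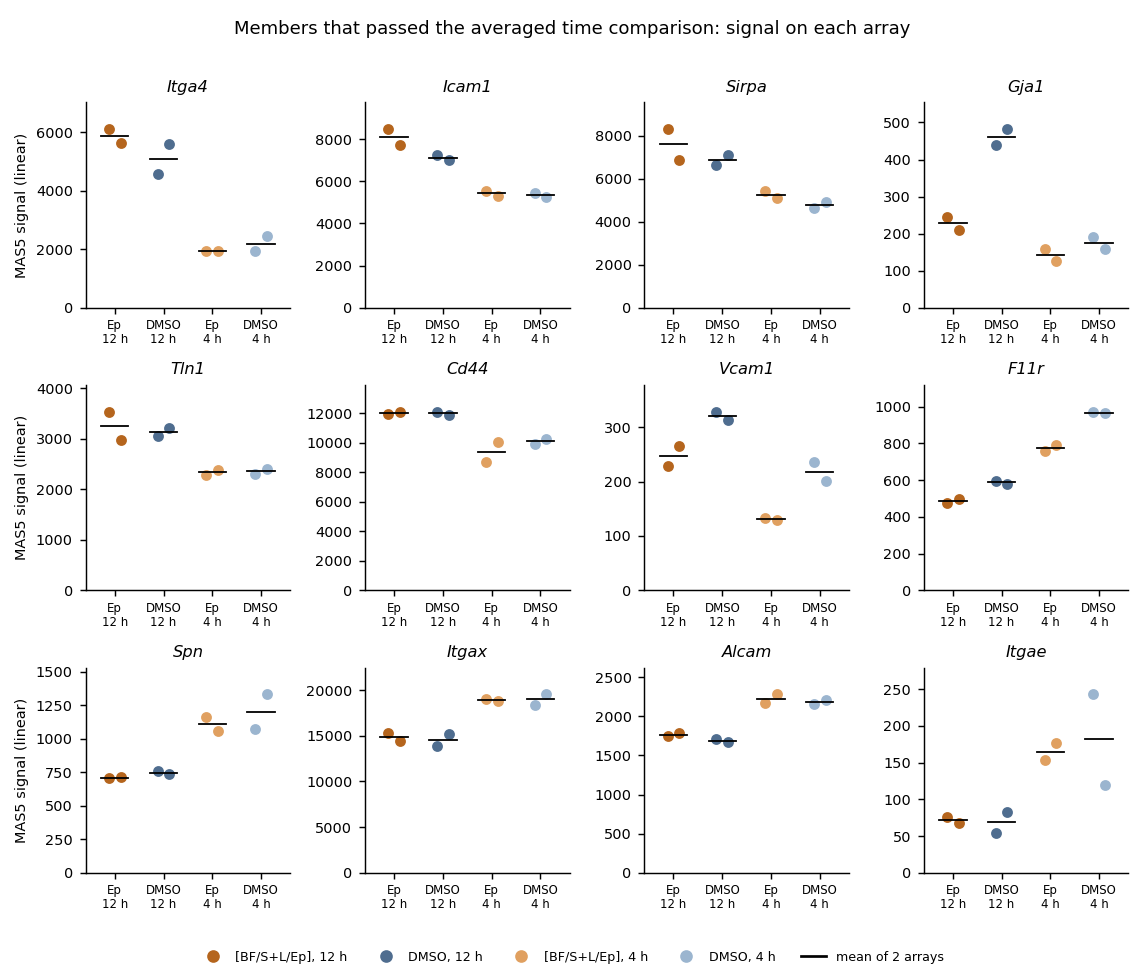
MAS5 signal (linear axis from 0) on each array of the 12 members that passed the averaged time comparison, higher at 12 h first. Groups run from [BF/S+L/Ep] and DMSO at 12 h to [BF/S+L/Ep] and DMSO at 4 h, points are arrays and bars the means of 2 arrays; *Itga4* read 4561 to 6106 at 12 h and 1932.5 to 2438.5 at 4 h.

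Other probe sets gave a second reading of these genes in the same 8 samples. The members were picked because they passed in these samples, so agreement says nothing about other samples. Of the 12 members, 10 had other probe sets above background on at least 4 arrays, 21 in all. In the averaged comparison 19 of them had the direction of the brightest one and 10 passed the test themselves, where 6.84% of all probe sets passed. The 2 with the other sign belong to *Vcam1* and *Alcam*. In 5 of the 21 (2 of *Gja1* and 1 each of *Itgae*, *Vcam1* and *F11r*) a group lay under the reference on both arrays, so their fitted values are not measured on both sides. Over the other 16, 15 had the direction of the brightest one and 9 passed, at least 1 each for *Itga4*, *Sirpa*, *Gja1*, *Tln1*, *Cd44* and *Spn*.

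**Figure D5:**
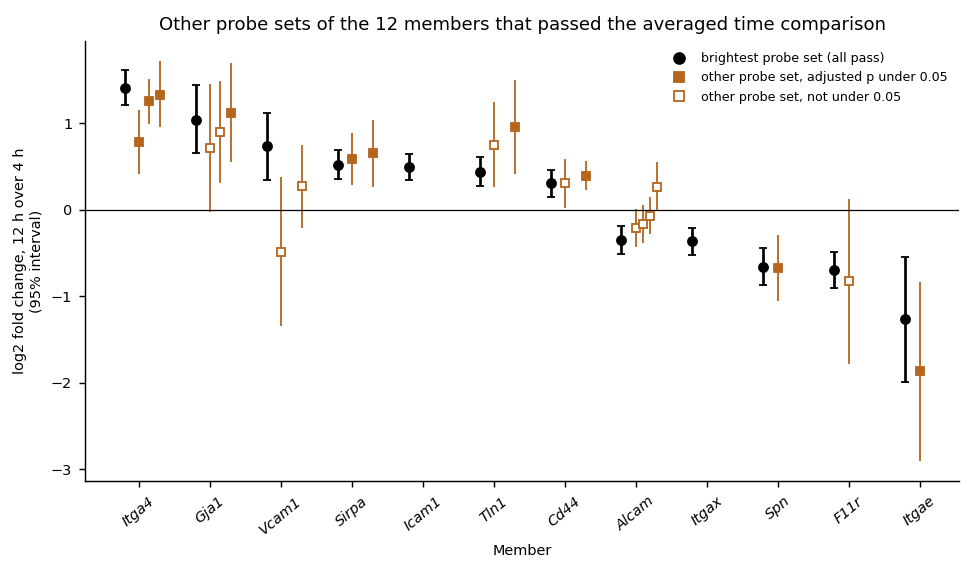
Log2 fold change of 12 h over 4 h, averaged over treatments, with 95% intervals, for the brightest probe set (black circles) and the other probe sets above background (squares, filled where the adjusted p was under 0.05) of the 12 members. Of the 21 squares, 19 lie on the side of their black circle; *Icam1* and *Itgax* have none. In 5 squares (2 of *Gja1* and 1 each of *Itgae*, *Vcam1* and *F11r*) a group lay under the background reference on both arrays.

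A wider list of 94 further adhesion genes was read the same way, of which 84 were measured and 52 were above background on at least 4 arrays. With the extract 0 of 84 passed by limma at 12 h, at 4 h or in the average. An unadjusted p under 0.05 was reached by 6, 1 and 6, against 5.96%, 4.97% and 7.08% of all probe sets. In the averaged time comparison 6 were higher and 1 was lower at 12 h, which is 8.3% of those measured against 6.84% of all probe sets, and 13.5% of those above background against 15.6% of all genes above background. *Fyb*, an adaptor of integrin activation, had 2168 and 2005 in [BF/S+L/Ep] and 1565 and 1673 in DMSO at 12 h, against 721 and 691 in [BF/S+L/Ep] and 723.5 and 801.5 in DMSO at 4 h, a log2 fold change of 1.32 (adjusted p = 9.6e-07). *Fgr* and *Syk*, kinases that signal downstream of β2 integrins, rose by 0.78 and 0.69 (adjusted p = 1.4e-04 and 1.7e-04). *Cd93*, a lectin-like adhesion receptor, rose by 0.69 (adjusted p = 0.0026). *Cldn1*, the tight junction gene claudin-1, had 227 and 282.5 in [BF/S+L/Ep] and 247 and 276 in DMSO at 12 h, against 420.1 and 345.5 in [BF/S+L/Ep] and 510.4 and 471 in DMSO at 4 h, and fell by 0.75 on the log2 scale (adjusted p = 0.008).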

How the data were processed

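Total RNA of 8 BMDC samples was hybridized to Affymetrix arrays, and the intensity values used are the MAS5 signals deposited by the authors, scaled so that the trimmed mean of each array is 500. Its version is not stated in the labels or methods, and detection calls were not used. Of 45101 probe sets, 64 controls were dropped.

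Log2 signals without an offset were fitted as 4 group means on all 8 arrays in limma 3.58.1 (R 4.3.3), with variances moderated along an intensity trend (4 residual and 8.833 prior degrees of freedom), two-sided tests, Benjamini-Hochberg adjustment over 45037 probe sets and a threshold of 0.05. Intervals are unadjusted 95% intervals, and ± gives standard errors. The 2-fold counts use no test. The fit was also run on simulated data with independent noise and known changes in probe sets above the reference on all 8 arrays. The share of changes recovered is not given here, so that run does not bear on the counts above. The number of arrays, 2 a group, limits the precision.

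Of the 45037 probe sets, 34945 have 1 symbol in the annotation of the platform, 932 several and 9160 none. Values of every array are given for members that passed a comparison (12 at most), the 4 members with the smallest p in each treatment comparison, the genes of the paper and *Itgax*. Members and lists were chosen with earlier results of these data known. Promoters and gene order come from RefSeq tables (GRCm38.p6), and figures from Python 3.11.15 and matplotlib 3.10.9.

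Alternatives were quantile normalization, centring on the median, an offset of 50, a background filter, moderation without the trend or robust, the replicate number as a block, the mean of all probe sets of a gene, only the arrays of 1 time or treatment, and each array left out in turn.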

Additional observations from a re-analysis of the deposited data

How the results depend on the processing

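Treatment calls stayed at 0 members under every alternative. The averaged time comparison (12 members) gave 1 member without the intensity trend, *Itga4*, and 8 to 10 when single arrays were left out. In [BF/S+L/Ep] (6 members) the count was 0 without the trend, 3 with centring on the median, 2 with only the 4 arrays of that treatment and 1 with the mean of all probe sets of a gene. It was 1 to 5 with single arrays left out: 1 when 12 h replicate 1 of that treatment was dropped, 2 for its 4 h replicate 1 and 3 for its 4 h replicate 2. In DMSO (6 members) it was 0 without the trend, 3 with the mean of all probe sets, and 1 to 6 with single arrays left out: 1 without DMSO 12 h replicate 1, 12 h replicate 2 or 4 h replicate 2, and 2 without 4 h replicate 1. The cause was not tested. No called value changed sign. Of values that were not called and came to 0 or turned, that of *Itga6* with the extract at 4 h was 0.06 without [BF/S+L/Ep] 4 h replicate 2, that of *Pxn* at 4 h was 0.09 and that of *Vcam1* 0.00 with the mean of all probe sets, and *Itgax* with the extract ran from -0.03 to 0.10 at 12 h, -0.05 to 0.05 at 4 h and -0.02 to 0.08 averaged.

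For the averaged comparison the adjusted p over 16 alternatives ran from 8.4e-07 to 0.0472 for *Itga4*, so its call held in all of them. *Icam1*, *F11r*, *Sirpa* and *Spn* lost the call only without the trend, *Gja1* and *Tln1* under 2 alternatives, *Itgax* and *Alcam* under 3 (both without DMSO 4 h replicate 2 among them), *Itgae* under 8, *Cd44* under 9 and *Vcam1* under 11.

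The 2-fold count at 12 h was 1 by the ratio of means alone and 1 at 1.5-fold (*Gja1* in both), and 0 to 2 with single arrays left out (1 without DMSO 12 h replicate 1, 2 without [BF/S+L/Ep] 12 h replicate 1). At 4 h it was 1 without the background filter (*Itgb3*) and 1 at 1.5-fold (*Vcam1*). The intervals inside 2-fold, recomputed under alternatives chosen after seeing the data, kept their counts within 1.5 times.

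Same-numbered arrays share only a number: their deviations correlated at -0.028 to 0.106. With the replicate block 13 members passed the averaged time comparison, 6 in [BF/S+L/Ep] and 5 in DMSO, and 0 with the extract.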
